A study of Mus musculus with 20 samples.

Results

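The respiratory chain is described here through the genes that encode its subunits, in mouse T cells kept in culture with interleukin 7 (IL-7) and interleukin 15 (IL-15). Members were chosen by gene name: protein-coding genes of the Nduf (A, B, C, S and V series), Sdh, Uqcr, Cox4 to Cox8, Atp5 and mt-Nd, mt-Co, mt-Cytb and mt-Atp families. This gave 97 of the 49671 genes in the count table, of which 84 are nuclear and 13 lie in mitochondrial DNA. Another 7 genes carried matching names but are not protein coding and were left out. The 84 nuclear members comprise 37 genes named as subunits of complex I, 4 of complex II, 8 of complex III, 18 of complex IV and 17 of complex V. Cytochrome c1 (Cyc1), a complex III subunit, and Usmg5, a complex V subunit, do not match the name rule. Cyc1 was followed with the cofactors, and Usmg5 is given with the other observations. Each member was taken by its name and not by its expression, but earlier results of these data were known when the families were chosen.

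The study measured polyadenylated RNA in 20 libraries, 5 from each of 4 groups. CD4+ or CD8+ T cells were isolated from spleen and inguinal lymph nodes, activated on plates coated with antibodies to CD3 and CD28 in 1 ng/mL human IL-2, and expanded in 50 ng/mL IL-15 with 10 ng/mL IL-7. Expansion lasted 4 days in the 2 week 1 groups, 18 days in the CD4 week 3 group and 25 days in the CD8 week 4 group, and all cells were sorted as CD44+CD62L+ at a purity over 97%. Activation took 72 h for polyclonal cells, which came from albino B6 mice, and 24 h for cells with a transgenic receptor, which came from Marilyn-BLITC and MataHari-BLITC mice. The labels do not say which libraries hold which cells, nor the age of the animals, nor whether the 5 libraries of a group come from separate animals or cultures. P-values therefore measure the spread between these libraries, which may be technical. The title of the series asks whether long-term culture preserves central memory and stem cell memory properties.

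The respiratory chain passes electrons from NADH (at complex I) and succinate (at complex II) through coenzyme Q to complex III, then through cytochrome c to oxygen at complex IV. Complexes I, III and IV pump protons across the inner mitochondrial membrane, and complex V, the ATP synthase, uses that gradient to make ATP. Complexes I, III, IV and V each combine subunits made in the cytoplasm from nuclear genes with subunits translated inside the mitochondrion from mitochondrial DNA, whereas complex II is entirely nuclear encoded. Memory T cells are known for oxidative metabolism and recently activated T cells for glycolysis.

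Libraries held between 13264302 and 28342449 counts, and 13290 genes passed the filter on low counts. Levels are given as CPM, the count divided by the library size after scaling by the trimmed mean of M values (TMM), and compared between genes only as CPM per kilobase of exon. The labelled lineages matched their markers: Cd4 lay between 520.2 and 903.0 CPM in the CD4 libraries and at 0.570 or below in the CD8 libraries, and the summed Cd8a and Cd8b1 lay between 1018 and 2727 CPM in the CD8 libraries and between 1.64 and 30.8 in the CD4 libraries. Summed T cell markers (Cd3e, Cd3g, Cd2, Cd5) lay between 1134 and 1766 CPM throughout. Among defining markers of other cells, Lyz2, Siglech, Hba-a2 and Hbb-bt were at 0 in all 4 groups, while summed B cell markers reached 12.9 CPM and summed myeloid markers 24.0 CPM in CD8 libraries. The summed natural killer markers lay between 158 and 344.5 CPM in CD8 and at 22.8 or below in CD4 libraries, most of it from Eomes, and the summed stromal markers between 62.8 and 107 CPM in CD8 and between 105 and 253 CPM in CD4 libraries, nearly all from Pecam1. Of the dendritic markers, Itgax was high in replicates 1 and 2 of both CD8 groups (20.1 and 25.7 CPM at week 1, 36.6 and 37.5 at week 4), where the other CD8 libraries had 7.01 or less. The erythroid marker Hba-a1 was at 0 in the CD8 libraries and at 18.9 CPM in CD4 week 3 replicate 2, where the other CD4 libraries had 2.10 or less. The part of these markers in the results was not tested. By principal components over the 1000 genes of highest variance, CD8 week 1 replicate 3, CD4 week 3 replicate 2 and CD4 week 1 replicate 2 lay apart from their groups, and CD8 week 4 replicates 1 and 2 lay apart from replicates 3 to 5. The numbers in the CD8 titles fall into a range A (replicates 1 to 3 of each CD8 group) and a range B (replicates 4 and 5), and all CD4 titles fall into another range. What these ranges stand for is not given. As these are bulk samples, fewer cells of a type and less RNA per cell cannot be told apart.

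Of the 97 members, 86 passed the filter: 79 of 84 nuclear and 7 of 13 mitochondrially encoded genes. The 5 nuclear members that did not pass all belong to complex IV (Cox4i2, Cox6a2, Cox7b2, Cox8b and Cox8c). The 6 mitochondrial members that did not pass were at 0 counts in all 20 libraries. These 6 genes are neighbours on the mitochondrial genome, mt-Co2, mt-Atp8, mt-Atp6, mt-Co3, mt-Nd3 and mt-Nd4l, and span chrM:7013-10173 in build GRCm38 without another subunit gene between them. Genes on either side were among the most highly counted members: mt-Co1 (chrM:5328-6872) had 2423354 counts over the 20 libraries and mt-Nd4 (chrM:10167-11544) had 414205. With 3 counts as the limit that a count of 0 allows over a group, a level of up to 0.0263 to 0.0317 CPM would have gone unseen. This covers counting error only. Reads that map to several places were not counted, and chromosome 1 carries near-identical copies of this stretch. Of all windows of 50 bases, 100% in mt-Co2, 99.9% in mt-Co3, 99.5% in mt-Atp6, 98.8% in mt-Nd4l and 98.0% in mt-Nd3 also occur in an annotated transcript of another gene. The 0 values of these 5 genes therefore cannot be read as absent RNA. The same share is 0% in mt-Atp8, which overlaps mt-Atp6. Only annotated transcripts were searched, so a share of 0% does not show that a stretch is unique in the genome. On chromosome 1 the copies of mt-Co2 (24614885-24615565) and mt-Atp6 (24613974-24614651) lie apart, and the bases between them were not compared as genome sequence. Neither the part of these bases nor that of the overlap in the 0 value of mt-Atp8 was tested.

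The first 90 bases of 2 of these genes are shown beside their annotated copies, 1 that differs at a single base and 1 that does not differ. The part of this base in the counts of the copies was not tested. The capital marks the only base that differs over the 345 aligned bases of mt-Nd3 (chrM:9459-9548 shown, + strand) and Gm28438 (chr1:24613030-24613119 shown, − strand), T3C, counted from the first base of mt-Nd3.
mt-Nd3: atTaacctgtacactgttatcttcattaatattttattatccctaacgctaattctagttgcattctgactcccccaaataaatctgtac
Gm28438: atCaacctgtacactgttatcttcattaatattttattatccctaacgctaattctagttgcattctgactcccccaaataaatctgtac
Over all libraries Gm28438 received 275 counts. The 681 aligned bases of mt-Co2 (chrM:7013-7102 shown, + strand) and Gm28661 (chr1:24615476-24615565 shown, − strand) have no difference, and Gm28661 received 1 count.
mt-Co2: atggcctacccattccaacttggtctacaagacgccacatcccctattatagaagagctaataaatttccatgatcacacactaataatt
Gm28661: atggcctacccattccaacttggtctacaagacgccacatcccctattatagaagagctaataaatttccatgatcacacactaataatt
Further copies are Gm10925, identical to mt-Atp6 over 678 aligned bases with 1 count, and Gm28437, identical to mt-Co3 over 783 aligned bases with 0 counts. Gm10222, which holds 98.8% of the windows of mt-Nd4l and was not aligned here, received 30 counts. Among the 7 mitochondrial members that were tested, the copied share was 62.2% in mt-Nd4 and 51.1% in mt-Co1, so their levels are uncertain. It was 8.19% in mt-Nd2, 7.61% in mt-Nd5 and 0% in mt-Nd1, mt-Nd6 and mt-Cytb. No tested mitochondrial gene belongs to complex V, and 1 each belongs to complexes III (mt-Cytb) and IV (mt-Co1).

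After long-term culture, the called nuclear members were lower, with 1 exception, and the called mitochondrial members higher in both lineages. In CD8 cells (week 4 against week 1), 16 of 79 nuclear members fell and 1, Cox7a2l, rose, while 3 of 7 mitochondrial members rose and 0 fell (edgeR quasi-likelihood F test, with p adjusted by Benjamini-Hochberg over all genes tested and a threshold of 0.05). Among all 13290 genes 16.4% fell, 17.1% rose and 33.5% were called in either direction. The 20 of 86 members called (23.3%) thus lay below the background in either direction, the 16 lower nuclear members near it and the 1 higher nuclear member below it. The median log2 fold change was -0.14 over nuclear members and 0.34 over mitochondrial members, beside 0.03 over all genes. In CD4 cells (week 3 against week 1), 18 of 79 nuclear members fell and 0 rose, while 4 of 7 mitochondrial members rose and 0 fell. Here 8.8% of all genes fell, 7.67% rose and 16.5% were called in either direction, so both the lower nuclear and the higher mitochondrial members exceeded the background. The medians were -0.19 for nuclear and 0.55 for mitochondrial members, beside 0.01 for all genes. The sign of the fitted change was negative in 65 of 79 nuclear members in CD8 and in 69 of 79 in CD4 cells, most of them not called. The matching share of all genes is not given, and the members share libraries and scaling.

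The counts depended on the libraries. Within title range A (3 libraries against 3) 1 member was called in CD8 cells, with 4.17% of all genes called (2.31% lower), and within range B (2 against 2) 34 were, with 49.2% of all genes called (24.1% higher, 25.1% lower). The medians within range A were -0.12 for nuclear and 0.22 for mitochondrial members, and within range B they were -0.18 and 0.52. Without CD8 week 1 replicate 5 the CD8 count was 12, beside 27.1% of all genes. Without CD8 week 4 replicates 1 and 2 it was 11, of which 6 rose and 5 fell, beside 29.3% of all genes, and the nuclear median was -0.08. Without CD8 week 4 replicate 3 the mitochondrial median was 0.21. In these 2 counts, as in the count with all libraries, the members' share (14% and 12.8%) lay below that of all genes.

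The CD4 count was 36 without CD4 week 3 replicate 2, beside 27.1% of all genes, 14 without week 1 replicate 4 (16.1%) and 12, all lower, without week 3 replicate 1 (11.3%). It was 4 without week 1 replicate 3 (9.18%), 5 without week 1 replicate 5 (13.1%), 4 without week 3 replicate 3 (8.28%), 3 without week 3 replicate 4 (8.11%) and 5 without week 3 replicate 5 (9.7%). When only the CD4 libraries entered the fit it was 4, beside 9.29% of all genes. In these last 6 analyses the members' share, between 3.49% and 5.81%, lay below that of all genes, so the CD4 excess over the background rests on the libraries that entered. Without CD8 week 1 replicate 3 and CD4 week 3 replicate 2, 34 members were called in CD8 cells (8 higher, 26 lower), beside 41.6% of all genes, and 40 in CD4 cells (7 higher, 33 lower), beside 32% of all genes. With CD4 week 1 replicate 2 left out as well, the counts were 36 (8 higher, 28 lower; 43.9% of all genes) and 42 (7 higher, 35 lower; 29.6% of all genes).

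**Figure D1:**
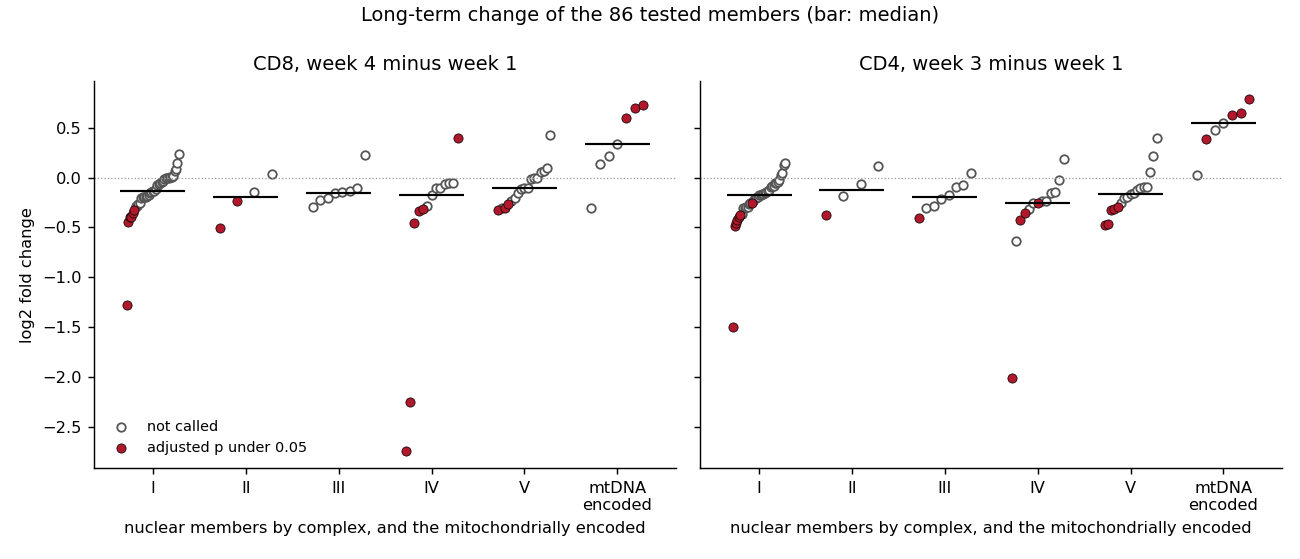
Fitted log2 fold change after long-term culture (vertical axis, log2 scale) of each tested nuclear member by complex and of the 7 tested mitochondrially encoded members, for CD8 week 4 minus week 1 (left) and CD4 week 3 minus week 1 (right); each point is a gene, filled points were called at an adjusted p under 0.05, and bars are medians. Most nuclear members lie below 0 in every complex, with medians between -0.10 and -0.25, and the mitochondrial genes lie above 0 except mt-Nd6 in CD8 cells.

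By complex, in CD8 cells, where 16.4% of all genes fell, 6 of 37 members of complex I fell, 2 of 4 of complex II, 0 of 8 of complex III, 5 of 13 of complex IV and 3 of 17 of complex V. These are shares near that of all genes in complexes I and V and above it in complexes II and IV. Median log2 changes in CD8 cells were -0.14, -0.19, -0.15, -0.18 and -0.10 in that order. In CD4 cells, where 8.8% of all genes fell, 7 members of complex I, 1 of complex II, 1 of complex III, 4 of complex IV and 5 of complex V fell. The medians were -0.17, -0.12, -0.19, -0.25 and -0.17. Differences between complexes were not tested. Calls were made in both lineages for 10 falling nuclear members (Ndufa4, Ndufa11, Ndufc2, Ndufv2, Sdhb, Cox5a, Cox5b, Cox6b2, Atp5f1 and Atp5g3) and 2 rising mitochondrial members (mt-Nd4 and mt-Nd5). These 10 are 10 of the 16 that fell in CD8 cells and 10 of the 18 that fell in CD4 cells. The share of all genes called in both lineages is not given, so this overlap cannot be read as particular to the members. The count of 10 was 1 in the test against 1.5-fold, 2 with only the groups compared and 3 with no filter. It was 23 without the 3 libraries apart on the principal components.

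Ndufa4 changed by the smallest adjusted p of all members in both lineages. It was named as a complex I subunit and is counted there, but its protein is known as a subunit of complex IV. The gene lies at chr6:11900292-11907497 (− strand, GRCm38), and 0% of its windows occur in an annotated transcript of another gene. In CD8 cells it stood at 60.5, 55.1, 43.7, 60.0 and 63.2 CPM in the 5 week 1 libraries and at 24.6, 23.1, 23.6, 20.4 and 24.6 CPM in the week 4 libraries. The CD4 libraries had 51.9, 63.9, 72.0, 60.9 and 70.4 CPM at week 1 and at 24.7, 27.7, 18.2, 23.6 and 18.5 CPM at week 3. Every long-term library lay below every week 1 library of its lineage. The log2 fold change was -1.28 ± 0.13 (SE; adjusted p = 5.95e-06, edgeR) in CD8 cells and -1.50 ± 0.13 (adjusted p = 2.34e-06) in CD4 cells. It was called in all 26 alternative analyses of the CD8 comparison, with adjusted p up to 0.0291, and in all 22 of the CD4 comparison, with adjusted p up to 0.00201. Within title range A the log2 change was -1.18, the only call among members there, and within range B it was -1.47. It was also the only member that fell by more than 1.5-fold in a test against that fold in CD4 cells. In CD8 cells Ndufa4, Cox6b2 and Cox7a1 passed that test.

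The 250 bases before the RefSeq start of Ndufa4 (chr6:11907451-11907700, − strand, GRCm38.p6) are shown because this gene was called in every analysis run of both long-term comparisons. They hold none of the 3 motifs searched for among the members, which are given with the promoters further on. The gene position given above is that of the count table, where the gene starts upstream of the RefSeq start. The last bases shown thus lie inside the gene as counted.
Ndufa4 promoter: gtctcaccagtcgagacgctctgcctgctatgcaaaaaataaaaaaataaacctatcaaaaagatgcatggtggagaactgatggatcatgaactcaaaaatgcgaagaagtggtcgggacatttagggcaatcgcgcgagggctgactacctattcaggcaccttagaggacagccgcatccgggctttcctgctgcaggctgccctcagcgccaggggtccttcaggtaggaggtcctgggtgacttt

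Among other members of complex I, Ndufv2 carries an iron-sulfur cluster in the arm that oxidises NADH. It fell from 99.3, 106, 105, 101 and 104 CPM to 73.7, 76.3, 95.5, 79.1 and 87.5 CPM in CD8 cells (log2 change -0.32 ± 0.08, adjusted p = 0.00649). In CD4 cells it fell from 86.3, 89.3, 112, 95.1 and 90.8 CPM to 85.3, 84.1, 80.3, 78.7 and 69.1 CPM (-0.25 ± 0.08, adjusted p = 0.0417). Neither pair of groups overlapped, and the CD8 log2 change was -0.35 within title range A and -0.32 within range B. Ndufa11 and Ndufc2, accessory subunits of the membrane arm, fell in both lineages, Ndufa11 by 0.35 and 0.39 and Ndufc2 by 0.39 and 0.38 on the log2 scale in CD8 and CD4 cells. Ndufb6 and Ndufb8 of the same arm fell in CD8 cells, by 0.44 and 0.39. Some 34.1% of the windows of Ndufb6 also occur in a transcript of another gene, Smim27, so its value is uncertain. The same holds for Ndufs3 (39.7%), Ndufb4 (37.0%) and Ndufs5 (31.1%), which were not called after long-term culture. These shares do not tell a copy elsewhere from a gene that overlaps at the same place. Ndufa5, Ndufc1 and Ndufs6 fell in CD4 cells, by 0.49, 0.46 and 0.43.

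Complex II is also an enzyme of the citric acid cycle, and Sdhb is its iron-sulfur subunit (chr4:140961203-140979193, + strand). In CD8 cells it stood at 117, 119, 94.9, 118 and 125 CPM at week 1 and at 71.9, 66.6, 93.0, 76.1 and 97.1 CPM at week 4. The CD4 libraries had 102, 112, 126, 103 and 109.7 CPM at week 1 and at 93.7, 101, 80.3, 83.6 and 66.4 CPM at week 3. The CD8 groups overlapped only through week 1 replicate 3, which lay below week 4 replicate 5, and the CD4 groups did not overlap. Sdhb fell by 0.50 ± 0.12 (adjusted p = 0.00393) in CD8 and by 0.38 ± 0.12 (adjusted p = 0.0353) in CD4 cells on the log2 scale. Its CD8 log2 change was -0.53 within title range A, where it was not called, and -0.51 within range B. Sdhd, a membrane anchor of the same complex, fell by 0.24 in CD8 cells (adjusted p = 0.0309).

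Of the 8 nuclear members of complex III, 0 were called in CD8 cells and 1 in CD4 cells. Uqcr10, a small accessory subunit, fell in CD4 cells from 44.1, 46.6, 63.6, 53.3 and 51.8 CPM to 42.3, 43.4, 40.4, 38.3 and 31.9 CPM (log2 change -0.40 ± 0.12, adjusted p = 0.0317), without overlap. In CD8 cells its log2 change was -0.22 (adjusted p = 0.172).

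In complex IV the structural subunits Cox5a and Cox5b fell together. Cox5a (chr9:57521274-57532426, + strand) went from 156, 166, 120.4, 147 and 151 CPM to 109, 99.5, 128, 105 and 97.4 CPM in CD8 cells. In CD4 cells it went from 98.7, 105, 138, 123 and 137 CPM to 97.6, 106, 88.1, 84.6 and 70.7 CPM. CD8 week 1 replicate 3 and week 4 replicate 3 were responsible for the CD8 overlap, and the low week 1 replicates 1 and 2 with the high week 3 replicate 2 for the CD4 overlap. The log2 change was -0.46 ± 0.12 (adjusted p = 0.00778) in CD8 and -0.43 ± 0.12 (adjusted p = 0.0222) in CD4 cells, and the CD8 change was -0.41 within title range A and -0.57 within range B. Cox5b changed by -0.34 ± 0.10 (adjusted p = 0.0184) and -0.35 ± 0.10 (adjusted p = 0.0275). Cox7a2 fell by 0.32 in CD8 cells and Cox6b1 by 0.25 in CD4 cells. Cox4i1, a core nuclear subunit among the most abundant of the complex, stood at a mean of 292 and 282 CPM in CD8 and of 304 and 299 CPM in CD4 cells and was not called.

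In complex V, Atp5g3 is 1 of 3 genes for the c subunit that forms the rotating ring (chr2:73908447-73911326, − strand). It stood at 220.1, 204, 192, 224 and 240.1 CPM at week 1 and 173, 145, 208, 169.6 and 167 CPM at week 4 in CD8 cells. The CD4 libraries had 174, 205, 249, 219 and 234 CPM at week 1 and 144, 206, 149, 146 and 134 CPM at week 3. A single long-term library in each lineage, CD8 week 4 replicate 3 and CD4 week 3 replicate 2, made the groups overlap. The log2 change was -0.32 ± 0.12 (adjusted p = 0.0428) and -0.47 ± 0.12 (adjusted p = 0.0136). Within title ranges A and B the CD8 log2 change was -0.24 and -0.48. In CD8 cells the call was lost in 8 of the 10 analyses that left out a library. The other c subunit genes were not called in either lineage. In CD8 and CD4 cells, Atp5g1 had log2 values of 0.068 (edgeR adjusted p = 0.773) and -0.19 (adjusted p = 0.42). Those of Atp5g2 were -0.0083 (adjusted p = 0.948) and 0.060 (adjusted p = 0.63). Atp5f1, a stalk subunit, changed by -0.27 ± 0.09 (adjusted p = 0.0238) and -0.31 ± 0.09 (adjusted p = 0.0219). Atp5b, the catalytic beta subunit, fell by 0.30 in CD8 cells, and Atp5k, Atp5j2 and Atp5j, which encode small subunits, fell by 0.47, 0.32 and 0.30 in CD4 cells.

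**Figure D2:**
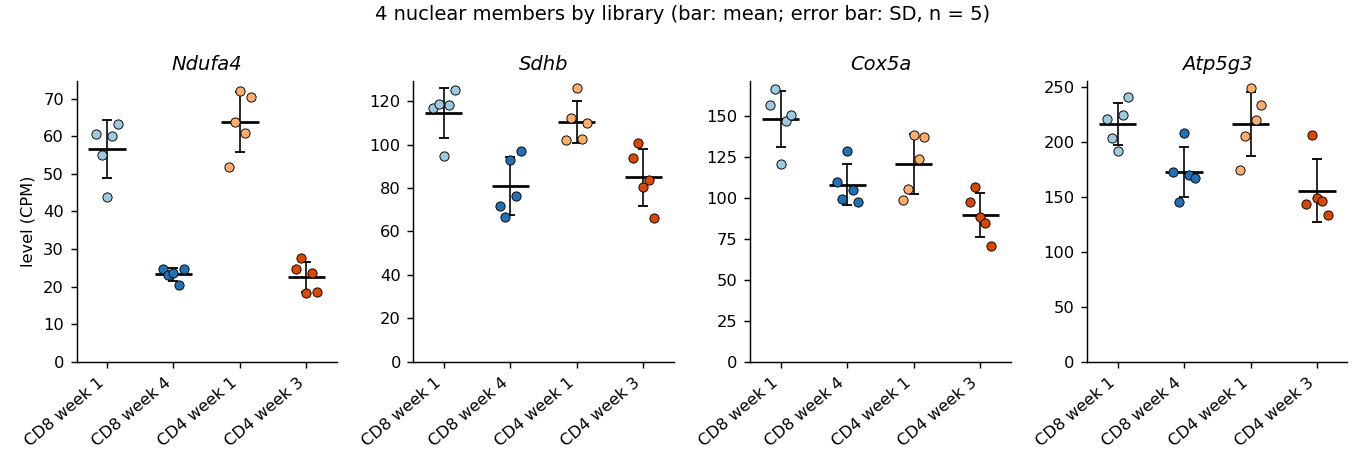
Levels in CPM (vertical axis, from 0) of Ndufa4, Sdhb, Cox5a and Atp5g3 in each of the 20 libraries by group, with the group mean and SD (n = 5). Ndufa4 lies between 43.7 and 72.0 CPM at week 1 and between 18.2 and 27.7 CPM after long-term culture, while the other 3 genes change less and have groups that touch or overlap in at least 1 lineage.

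Complex IV has tissue isoforms, and these gave the largest fold changes at the lowest levels. Cox6b2, known as the testis isoform of a subunit facing the intermembrane space (chr7:4751792-4753094, − strand), had 11.5, 13.2, 0.997, 4.67 and 5.80 CPM in CD8 week 1 and 1.00, 1.30, 0.828, 0.965 and 1.31 CPM in CD8 week 4 libraries. The CD4 libraries held 0.871, 0.564, 0.300, 0.242 and 1.08 CPM at week 1 and 0.0447, 0.264, 0.0428, 0.137 and 0.254 CPM at week 3. The log2 change was -2.74 ± 0.53 (adjusted p = 0.00116) in CD8 cells, where only the low week 1 replicate 3 overlapped with week 4, and -2.01 ± 0.67 (adjusted p = 0.0458) in CD4 cells, where the call was lost in 8 of the 10 analyses that left out a library. Cox7a1, known from heart and skeletal muscle (chr7:30184144-30186078, + strand), had 2.02, 2.56, 0.586, 1.38 and 1.81 CPM at CD8 week 1 and 0.500, 0.563, 0.259, 0.241 and 0.174 CPM at week 4. These groups did not overlap, and the log2 change was -2.25 ± 0.44 (adjusted p = 0.00126). In CD4 cells Cox7a1 lay at 0.249 CPM or below, and its log2 change was -0.64 ± 0.64 (adjusted p = 0.511). Week 1 replicate 3 was again the lowest of its CD8 group. Within title range A the CD8 log2 changes of Cox6b2 and Cox7a1 were -3.05 and -1.97 and not called, and within range B they were -2.21 and -2.88.

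Cox6a2, another muscle isoform, was under the filter. It had 37 counts over the 5 CD8 week 1 libraries (0.391 CPM, 95% Poisson interval 0.275 to 0.539) and 1 count at CD8 week 4 (interval up to 0.0493 CPM), with 3 and 1 counts in the CD4 groups; these intervals cover counting error only. Every CD8 week 1 library had between 0.354 and 0.477 CPM of it. Cox4i2 had between 1 and 5 counts per group, and Cox7b2, Cox8b and Cox8c had 0 in every library, under the limits given above for a group. Cox7a2l, known for joining complexes III and IV into supercomplexes (chr17:83501919-83514333, − strand), was the only nuclear member that rose. In CD8 cells it had 106, 114, 164, 117 and 118 CPM at week 1 and 168, 151, 161, 170.1 and 167 CPM at week 4. Only week 1 replicate 3 reached the week 4 range. The log2 change was 0.40 ± 0.11 (adjusted p = 0.0106) in CD8 cells, with 0.31 within title range A and 0.50 within range B, and 0.18 (adjusted p = 0.258) in CD4 cells.

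**Figure D3:**
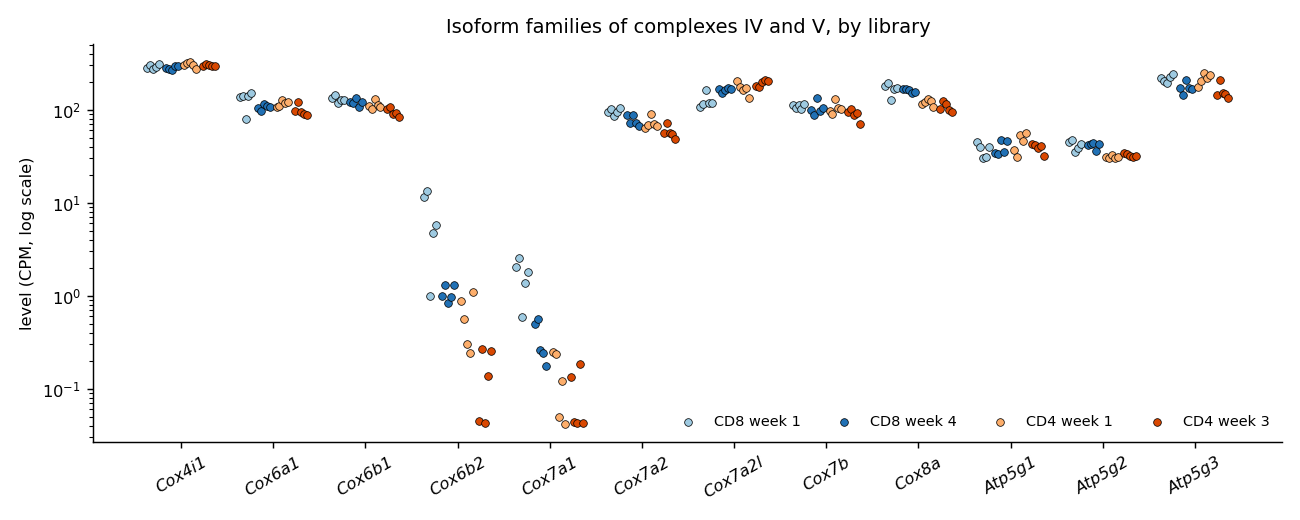
Levels in CPM (vertical axis, log scale) of isoform families of complexes IV and V, 1 point per library in 4 groups (n = 5 each). Cox6b2 and Cox7a1 are highest in CD8 week 1 libraries other than replicate 3, with up to 13.2 and 2.56 CPM, and lie at or below 1.31 CPM in all CD8 week 4 and CD4 libraries.

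The mitochondrial genes are transcribed as long precursors from both strands of the circle, then cut apart, and most of the messenger RNAs are polyadenylated. How far each RNA was polyadenylated was not measured here. All members but mt-Nd6 lie on the + strand. mt-Nd5, a proton-pumping subunit of complex I (chrM:11742-13565), had 1418, 1173, 2252, 1242 and 1144 CPM at CD8 week 1 and 1879, 1918, 2968, 2335 and 2635 CPM at week 4. In CD4 cells it had 2229, 1859, 1918, 2153 and 1673 CPM at week 1 and 4862, 2296, 3208, 4020.3 and 2630.3 CPM at week 3. The CD4 groups did not overlap, and the CD8 groups overlapped through week 1 replicate 3. mt-Nd5 rose by 0.70 ± 0.21 (adjusted p = 0.0156) in CD8 and by 0.79 ± 0.21 (adjusted p = 0.0168) in CD4 cells on the log2 scale. The call held in 10 of the 10 CD8 and 9 of the 10 CD4 analyses that left out a library.

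mt-Cytb, the only complex III subunit made in the mitochondrion (chrM:14145-15288), had 1672, 1199.5, 2066, 1335 and 1430.4 CPM at CD8 week 1 and 1925, 1871, 3121, 2462 and 3349 CPM at week 4. It rose by 0.72 ± 0.19 in CD8 cells (adjusted p = 0.00778), with week 1 replicate 3 inside the week 4 range. In CD4 cells the values were 2935, 2211, 2778, 2679 and 2279 CPM at week 1 and 5152, 2858, 3532, 4249 and 3059 CPM at week 3, a log2 difference of 0.55 ± 0.19 that was not called (adjusted p = 0.0547). mt-Nd4 rose by 0.59 (adjusted p = 0.0219) and 0.65 (adjusted p = 0.0271). mt-Nd2 rose in CD4 cells by 0.63 (adjusted p = 0.0272), without overlap, and its CD8 value was 0.34 (adjusted p = 0.164). mt-Co1, part of the catalytic core of complex IV, rose in CD4 cells by 0.39 (adjusted p = 0.0409), and its CD8 value was 0.22 (adjusted p = 0.188). mt-Nd1 was not called, at 0.14 (adjusted p = 0.549) and 0.48 (adjusted p = 0.059). mt-Nd6, the member on the other strand (chrM:13552-14070), had log2 values of -0.30 (adjusted p = 0.324) and 0.03 (adjusted p = 0.942).

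Outside the CD4 week 1 group, a single library was the highest of its group for most of the mitochondrial genes, mt-Nd6 among them. CD8 week 1 replicate 3 was the highest of its group for 6 of the 7 genes, CD8 week 4 replicate 3 for 5 and CD4 week 3 replicate 1 for all 7, while CD4 week 3 replicate 2 was the lowest for 6. The CD4 week 1 group was split. Its replicate 1 was the highest for mt-Co1, mt-Nd4, mt-Nd5 and mt-Cytb. Its replicate 2 was the highest for mt-Nd6 and the lowest for mt-Nd1, mt-Nd2 and mt-Cytb. Its replicate 3 was the highest for mt-Nd1 and mt-Nd2 and the lowest for mt-Nd6. CD8 week 4 replicate 5 was the highest of its group for mt-Nd4 and mt-Cytb and the lowest for mt-Nd6. Within title range A none of the 7 was called, and in range B 5 were. The log2 change of mt-Nd5 was 0.47 in range A and 1.04 in range B, and that of mt-Cytb 0.47 and 1.05. Without CD4 week 3 replicate 1 no member was called higher in CD4 cells.

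**Figure D4:**
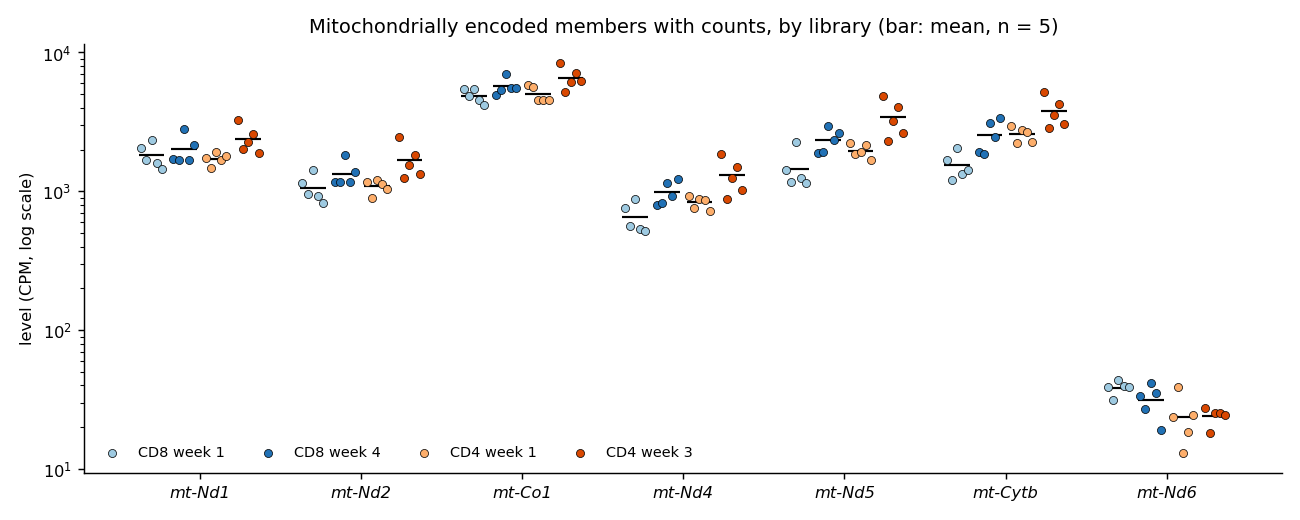
Levels in CPM (vertical axis, log scale) of the 7 counted mitochondrial members in each of the 20 libraries by group, with a bar at the group mean (n = 5). The highest CD4 week 3 library, replicate 1, is the same for all 7 genes, and CD8 week 1 replicate 3 stands above the other week 1 libraries for 6.

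Summed over its members, each origin can be compared within a library. The nuclear members summed to 8842.5 ± 419.3 CPM (SD, n = 5) at CD8 week 1, 8034.6 ± 588.9 at CD8 week 4, 8503.1 ± 633.8 at CD4 week 1 and 7610.1 ± 502.0 at CD4 week 3. The 7 mitochondrial genes summed to 11437 ± 1995, 14937 ± 2667, 13238 ± 990.5 and 19180 ± 4544 CPM in the same order, which is 1.16%, 1.47%, 1.33% and 1.90% of all counts on average. The ratio of mitochondrial to nuclear sums was 1.39, 1.16, 1.77, 1.16 and 1.04 in the CD8 week 1 libraries and 1.6003, 1.74, 2.12, 1.81 and 1.98 in the CD8 week 4 libraries. It was 1.87, 1.64, 1.41, 1.53 and 1.39 in the CD4 week 1 libraries and 3.34, 1.74, 2.39, 2.84 and 2.33 in the CD4 week 3 libraries. In both lineages the ratios overlapped only through a single library, CD8 week 1 replicate 3 and CD4 week 3 replicate 2. As sums over chosen genes, these were not tested, and the sums leave out the 6 mitochondrial genes at 0. They include mt-Co1 and mt-Nd4, whose levels are uncertain because 51.1% and 62.2% of their windows are copied. At CD8 week 1 mt-Co1 alone averaged 4884.6 of the 11437 CPM.

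**Figure D5:**
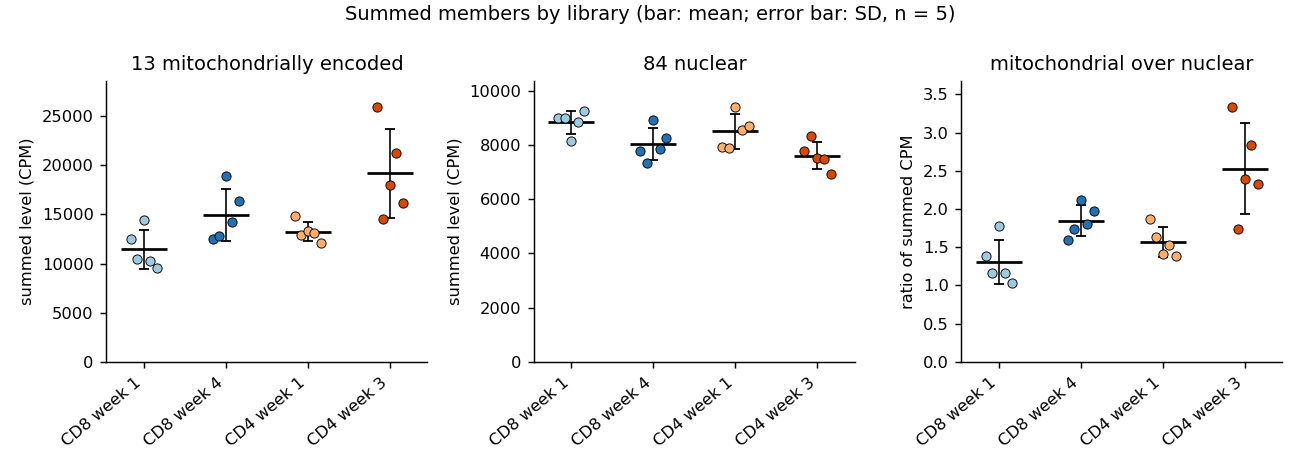
Summed CPM of nuclear members, summed CPM of mitochondrial members and their ratio (vertical axes) in each of the 20 libraries by group, with the group mean and SD (n = 5). The mean ratio is 1.30 at CD8 week 1, 1.85 at CD8 week 4, 1.57 at CD4 week 1 and 2.53 at CD4 week 3.

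Per kilobase, 6 of the 7 counted mitochondrial genes stood above every nuclear member in the mean of the CD8 week 1 libraries. The exception was mt-Nd6. The libraries were made from polyadenylated RNA, so these levels also depend on polyadenylation, which was not measured. In CD8 week 1 libraries mt-Co1 averaged 3162, mt-Nd1 1901, mt-Cytb 1347, mt-Nd2 1019, mt-Nd5 793 and mt-Nd4 473 CPM per kilobase, and mt-Nd6 stood at 74.2. The highest nuclear member there, Cox8a, averaged 305 CPM per kilobase, followed by Atp5b at 257. After long-term culture mt-Cytb averaged 2225 CPM per kilobase in CD8 and 3296 in CD4 libraries, and Atp5b 208 and 203.

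The change was compared between the lineages by the difference of the 2 log2 changes in the same fit. Of the 86 tested members 0 differed (edgeR), where 0.655% of all genes did. At an unadjusted p under 0.05 there was 1 member by edgeR, 1 by DESeq2 and 1 by limma-voom, and the smallest adjusted p was 0.407, 0.324 and 0.42. A call in 1 lineage alone, such as that of Cox7a2l or mt-Nd2, is thus not shown to be a difference between CD8 and CD4 cells. The culture times also differ, with 25 days for CD8 and 18 days for CD4 cells, which cannot be told apart from lineage.

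CD8 and CD4 cells also differed from each other at week 1 and after long-term culture, but lineage cannot be told apart from the title ranges. After long-term culture it cannot be told apart from culture time either, with 25 days for CD8 and 18 days for CD4 cells. At week 1, 11 nuclear members were higher and 3 lower in CD8 cells, with mt-Nd6 higher and mt-Cytb lower, while 38.1% of all genes were called, 19.1% higher and 19% lower. After long-term culture 16 nuclear members were higher and 2 lower, with mt-Cytb lower, while 32.7% of all genes were called, 17.7% higher and 15% lower. The 16 and 19 of 86 members called lay below the background at both stages. These comparisons share libraries with the long-term comparisons.

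Atp5d, the delta subunit of the ATP synthase (chr10:80138632-80145818, + strand), lay between 202 and 262 CPM in the CD8 libraries and between 145 and 180.3 CPM in the CD4 libraries, with no overlap over both stages. The log2 difference was 0.42 (adjusted p = 0.000183) at week 1 and 0.54 (adjusted p = 1.29e-05) after long-term culture. Cox8a was higher in CD8 cells by 0.48 and 0.59, Atp5g2 by 0.43 and 0.36 and Ndufv3, an accessory subunit of complex I, by 0.50 and 0.60. Cox6b2 was higher by 3.54 and 2.81, and Cox7a1 by 3.52 and 1.91. These were the only pair to pass a test against 1.5-fold at week 1, and Cox6b2 alone passed it after long-term culture.

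Atp5l, subunit g of the ATP synthase, had 5.13, 4.11, 8.21, 5.02 and 6.17 CPM at CD8 week 1 and 9.50, 9.17, 11.1, 10.7 and 8.88 CPM at CD4 week 1. Some 7.49% of its windows also occur in annotated transcripts of other genes, 640 in all, and reads that map to several places were not counted. Their part in its level was not tested. All CD4 values of Atp5l lay above all CD8 values. It was lower in CD8 cells by a log2 difference of -0.79 (adjusted p = 0.00149) at week 1 and of -0.58 (adjusted p = 0.0131) after long-term culture. Cox7a2l differed by -0.45 at week 1, and mt-Cytb by -0.74 (adjusted p = 0.00508) and -0.57 (adjusted p = 0.0283).

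The genes that build and regulate the chain are read against the 33.5% of all genes called in CD8 and the 16.5% called in CD4 cells. Of 46 tested assembly factors of the complexes, 2 rose and 4 fell in CD8 cells and 1 rose and 0 fell in CD4 cells, with median log2 changes of 0.00 and -0.02. Coa5, an assembly factor of complex IV, rose by 0.14 and 0.22 in the 2 lineages. Surf1, which also serves complex IV, rose by 0.38 and the complex I factors Ndufaf2 and Ndufaf6 fell by 0.45 and 0.47 in CD8 cells. Of 27 genes for maintenance and transcription of mitochondrial DNA, 1 rose and 1 fell in each lineage. Tfam, which packages mitochondrial DNA and starts its transcription, fell by 0.21 (adjusted p = 0.043) in CD8 and 0.28 (adjusted p = 0.0207) in CD4 cells, Fastkd1 rose by 0.63 in CD8 cells and Top1mt, a mitochondrial topoisomerase, by 0.63 in CD4 cells.

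Of 12 regulators of mitochondrial biogenesis, 10 were tested, and 2 rose and 4 fell in CD8 cells while 0 rose and 3 fell in CD4 cells. Nrf1, a transcription factor of nuclear respiratory genes, fell by 0.41 (adjusted p = 0.00333) and 0.33 (adjusted p = 0.0246). Gabpb1, a subunit of the factor also known as NRF2, fell by 0.48 (adjusted p = 0.00252) and 0.35 (adjusted p = 0.028), and Hif1a, the hypoxia factor, by 0.83 (adjusted p = 0.00394) and 0.82 (adjusted p = 0.00991). Esrra rose by 0.33 and Ppargc1b, a coactivator of mitochondrial genes, by 0.60 in CD8 cells. Of 15 genes for cytochrome c, Cyc1 and coenzyme Q synthesis, 1 rose and 4 fell in CD8 cells and 2 rose and 1 fell in CD4 cells. Coq8a rose by 0.69 and 0.65, Coq5 rose by 0.33 in CD4 cells, Coq3 and Pdss1 fell by 0.65 and 0.79 in CD8 cells, and Coq6 fell by 0.26 in CD4 cells.

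Large complexes outside the chain are set beside the members for scale. The nuclear-encoded mitochondrial ribosomal proteins had 18 of 77 genes lower and 2 higher in CD8 cells and 13 lower and 3 higher in CD4 cells, with medians of -0.17 and -0.15, near those of the nuclear members. Proteasome subunits had 21 and 15 of 38 lower, 0 higher and medians of -0.27 and -0.28. Cytoplasmic ribosomal proteins went the other way, with 61 and 60 of 95 higher, 1 and 0 lower and medians of 0.32 and 0.33. Over the 20 libraries, the genes most like the summed mitochondrial members were Rps25 (Pearson r = 0.935), Rpl35a (0.896), Rpl21 (0.888), Gm17491 (0.885) and Pigm (0.873). These libraries share group and scaling, and the values are a description over 20 libraries.

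Nuclear respiratory genes are known for promoters with sites of the factors NRF1, GABPA and YY1. RefSeq windows from 250 bases before to 50 bases after the start (GRCm38.p6) matched 67 of the 84 nuclear members. The NRF1 letters, which read the same on both strands and stand in capitals in the windows printed at the end, were found in 5 members, against 1.07% of all 27025 genes with a window. The ETS letters CCGGAAG, as bound by GABPA, occurred on either strand in 16 members against 9.93% of all genes, and the YY1 letters AAGATGGCG in 7 members against 1.64%. None of the 3 motifs contains another. Among tested members with the NRF1 letters, 1 of 5 fell in CD8 and 2 of 5 in CD4 cells, against 14 and 15 of 60 without them. With the ETS letters 3 and 4 of 16 fell, against 12 and 13 of 49 without. With the YY1 letters 0 and 4 of 7 fell, against 15 and 13 of 58. A match describes the letters and is no evidence of binding. The 60 bases around the NRF1 letters (in capitals) are shown for 4 of these members, with Atp5k at chr5:108434415-108434474 (− strand), Cox6a1 at chr5:115349086-115349145 (− strand), Atp5g2 at chr15:102671055-102671114 (− strand) and Ndufa11 at chr17:56717677-56717736 (+ strand), because they place the motif in genes that fell in both lineages (Ndufa11), in CD4 cells alone (Atp5k) or in neither (Cox6a1 and Atp5g2).
Atp5k: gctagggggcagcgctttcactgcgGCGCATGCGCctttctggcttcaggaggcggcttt
Cox6a1: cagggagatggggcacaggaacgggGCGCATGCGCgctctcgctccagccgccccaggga
Atp5g2: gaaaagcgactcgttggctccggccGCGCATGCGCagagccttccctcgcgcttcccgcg
Ndufa11: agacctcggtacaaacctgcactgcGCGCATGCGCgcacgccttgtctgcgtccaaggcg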

How the data were processed

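The deposited values are raw counts of reads over the exons of each gene, 1 column per library. Per the file headers, the authors made them with featureCounts 1.6.3 on GENCODE M12 (GRCm38), counting reversely stranded reads, with no option to count multi-mapped reads or reads overlapping several genes. Per the submitters' processing notes, reads were aligned to mm10 with STAR, whose version is not given in the sources used here. Genes were named from the GENCODE M21 annotation of the same build (49412 of 49671 matched), and the deposited gene length gave CPM per kilobase.

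Genes were tested with edgeR 4.0.16 (R 4.3.3): filterByExpr, TMM and the quasi-likelihood test on 4 group means over 20 libraries, with Benjamini-Hochberg adjustment over 13290 genes and calls at adjusted p under 0.05. Of the 5 comparisons, 2 set long-term culture against week 1, 1 compares those changes between lineages and 2 set CD8 against CD4. Depth was 13264302 to 28342449 counts per library, so precision is set mainly by the spread between libraries. Groups follow the labels, and replicate numbers follow accession order and pair nothing. All 40 pairs of replicates differed by more than counting noise (chi-square per degree of freedom 5.9 to 141), so none was counted as a duplicate. The fit was tested on simulated data. Alternatives were other scalings (relative log expression, upper quartile, library totals, TMM without mitochondrial and ribosomal protein genes), DESeq2 1.42.0, limma-voom (limma 3.58.1), other filters, a test against 1.5-fold, only the groups compared, the title ranges and leaving out libraries. Copies of members were found by exact windows of 50 bases in annotated transcripts of other genes (GENCODE M21, GRCm38), on either strand. The sequence windows came from GRCm38 and RefSeq, and no protein sequences are shown.

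The members and lists were chosen with earlier results of these data known. Genes named in the text are all mitochondrial members, the 3 nuclear members per complex and long-term comparison with the smallest adjusted p, the 3 in each direction between lineages, all tissue isoforms, the 2 called genes in each direction per list and the 5 genes most like the mitochondrial sum. The remaining called members are also named, except 1 that is counted in totals and is not reported here.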

Additional observations from a re-analysis of the deposited data

Results flagged for a closer look

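Among the members named by rule, 166 groups of 5 libraries were examined for a library whose gap to the nearest other exceeded Dixon's 95% limit (0.71 of the group's range), and 17 did; chance gives about 1 in 20 groups. Values are in CPM, with the range of the other 4 libraries.

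CD8 week 1 replicate 3 stood apart for 7 genes. It was low for Cox6a1 (80.1, others 136 to 149.7), Ndufb8 (34.7, others 47.3 to 52.4), Sdha (241, others 299 to 315), Sdhb (94.9, others 117 to 125) and Uqcrc1 (81.5, others 107 to 112). It was high for Cox7a2l (164, others 106 to 118) and mt-Nd5 (2252, others 1144 to 1418).

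CD4 week 3 replicate 2 stood apart for 5 genes and was high for each: Atp5b (982, others 813 to 841), Atp5g3 (205.55, others 134 to 149), Cox6a1 (120.65, others 86.4 to 95.6), Ndufb8 (44.5, others 34.4 to 37.3) and Ndufc2 (63.5, others 40.2 to 45.6). Both libraries were among the 3 that lay apart from their groups on the principal components.

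CD8 week 4 replicate 3 was high for Cox5b (81.6, others 71.2 to 73.3) and Uqcrb (65.2, others 40.7 to 44.4). CD8 week 4 replicate 4 was low for Atp5g2 (35.6, others 42.1 to 44.2), CD8 week 1 replicate 1 was low for Ndufv3 (101, others 115 to 120.5), and CD4 week 1 replicate 3 was high for Cox7a2 (89.2, others 63.8 to 69.2).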

How the results depend on the processing

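No called value changed direction among 36 alternatives, but 17 values of 6 members that were not called changed sign. For CD8 week 4 against week 1, on the log2 scale, Atp5g2 went from -0.0083 to 0.021 with upper-quartile factors, 0.0042 with no filter and 0.0093 in title range A, and lay between -0.066 and 0.043 with single libraries left out. Atp5g1 went from 0.068 to -0.032 in title range A, to -0.0206 both without the 2 and without the 3 libraries named below, and lay between -0.0045 and 0.145 with single libraries left out. Cox7b went from -0.060 to 0.036 without CD8 week 4 replicates 1 and 2. With single libraries left out, Cox8a lay between -0.133 and 0.0047 and mt-Nd1 between -0.0100 and 0.247 in CD8 cells, and mt-Nd6 between -0.125 and 0.281 in CD4 cells. The medians over nuclear and over mitochondrial members kept their sign in both long-term comparisons. No scaling moved the median of all genes by over 0.1. Among the 74 results for single named members, 1491 of 1749 alternative values kept their direction and side of the threshold, 197 lost the call and 44 gained it.

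Counts of called members moved more. For CD8 week 4 against week 1 (20 called), the test against 1.5-fold gave 3, title range A alone 1, title range B alone 34, leaving out CD8 week 1 replicate 3 and CD4 week 3 replicate 2 34, these with CD4 week 1 replicate 2 36, and leaving out CD8 week 4 replicates 1 and 2 gave 11. Leaving out single libraries gave 12 to 30. For CD4 week 3 against week 1 (22 called), no filter gave 12, the test against 1.5-fold 1, only the groups compared 4, and leaving out the same 2 libraries 40 and the same 3 42. Single libraries left out gave 3 to 36. For CD8 against CD4 at week 1 (16 called), the test against 1.5-fold gave 2, and single libraries left out gave 12 to 21. After long-term culture (19 called), the test against 1.5-fold gave 1, leaving out the 2 libraries 33, the 3 libraries 33 and CD8 week 4 replicates 1 and 2 gave 9, while single libraries left out gave 12 to 24 (12 without CD4 week 3 replicate 4). The difference between lineages stayed at 0. The 1.5-fold and smaller fits test more than a change from 0 or use fewer libraries, and for the other settings the cause was not tested. The analyses without 2 or 3 libraries, and without CD8 week 4 replicates 1 and 2, were chosen after seeing the data.

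No paired analysis was possible because the labels give no replicate numbers, and those used here follow accession order. Depth limits what can be said of the isoforms under the filter. The counting of reads with a single place in the genome limits what can be said of at least 5 of the 6 mitochondrial members at 0.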

Other observations

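The genes named here were chosen after their values were seen and are given as values. The 2 ribosomal RNAs of the mitochondrion are encoded on the same circle as the 13 subunit genes. mt-Rnr1 fell in CD8 cells from 890 ± 167 CPM (SD, n = 5) to 481 ± 82.9 CPM, without overlap (log2 change -0.89 ± 0.23, edgeR adjusted p = 0.00801). In CD4 cells its means were 434 and 419 CPM (log2 change -0.05, adjusted p = 0.904). mt-Rnr2 had log2 values of -0.52 (adjusted p = 0.0506) in CD8 and 0.07 (adjusted p = 0.835) in CD4 cells. The libraries were made from polyadenylated RNA, which ribosomal RNA enters only in part.

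Atpif1, the inhibitor of the ATP synthase, fell by 0.90 (edgeR adjusted p = 0.00294) in CD8 cells and by 0.77 (adjusted p = 0.0159) in CD4 cells on the log2 scale. Both falls were larger than that of any tested nuclear subunit of that complex. Usmg5, a subunit outside the name rule, had log2 values of -0.17 (edgeR adjusted p = 0.383) in CD8 and -0.51 (adjusted p = 0.023) in CD4 cells. AA467197, a relative of Ndufa4, had means of 44.4 and 111 CPM in CD8 cells and of 46.7 and 96.1 CPM in CD4 cells, with wide spread, and was not called (log2 values 1.33 ± 0.52, adjusted p = 0.0564, and 1.04 ± 0.52, adjusted p = 0.167). Mki67, a marker of dividing cells, fell in CD8 cells from 937 to 249 CPM (log2 change -1.91, adjusted p = 0.0252). In CD4 cells it lay between 21.7 and 631 CPM at week 3, and its log2 value was -1.54 (adjusted p = 0.091). Its part in the results on the members was not tested.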
